A study of Mus musculus with 4 samples.

Results

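The genes described here were the 47 genes of the DNA replication machinery, taken as a list of named genes from the 51826 genes in the deposited count table. The list was divided by role into 9 genes of origin licensing, 12 genes of the fork helicase, 22 genes of the polymerases and other fork factors, and 4 genes of nucleotide supply. The rule names the genes and uses no threshold on a measured value. RNA was sequenced from cultures of mouse mesenchymal cells of the hair follicle, those of the dermal papilla (DPCs) and those of the dermal sheath (DSCs), at passage 3 (low passage) and at passage 9 (high passage). The labels gave the genotype of all 4 groups as WT, and the study's methods gave vibrissa (whisker) follicles of EGFP-transgenic mice as the source. By these methods every group would carry the EGFP transgene, but the labels did not give it for the sequenced cultures. The cells were expanded in culture before sequencing, and the labels gave no treatment other than passage. Each group was 1 library, so no difference reported below had a replicate check, and passage could not be told apart from any other difference between the cultures or libraries. How many animals stood behind a culture was not given in the sources used here.

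DNA replication is prepared in G1 phase, when the origin recognition complex (ORC) and its partners Cdc6 and Cdt1 load the ring-shaped MCM2-7 helicase onto origins, a step called licensing. In S phase the Cdc45 protein and the GINS complex join MCM2-7 to form the active helicase, and polymerase alpha-primase, polymerase delta and polymerase epsilon copy the opened strands with the help of the sliding clamp PCNA, the clamp loader RFC and the single-strand binding complex RPA. Many of these genes are known targets of the E2F transcription factors, and their RNA is most abundant in dividing cells.

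The promoters are shown because E2F recognition sequences are a known shared feature of this machinery that the list did not use. RefSeq promoter windows (GRCm38.p6, 250 bases before to 50 bases after the RefSeq transcription start) were at hand for 38 of the 47 members, in 46 windows. The RefSeq starts differ from the gene starts given below. The Mcm5 window ends at 75109558, before the gene start of 75109569, and the RefSeq starts of Orc1, Clspn, Tk1 and Gins3 lie inside the gene spans. Those of the member with the lowest mean change in each role group, and of the member with the highest mean change of all, are printed in the direction of transcription, with E2F words (TTTCCCGC, TTTCGCGC, TTTGCCGC or TTTGGCGC, on either strand) and the NF-Y word CCAAT (either strand) in capitals. Orc1 encodes the largest ORC subunit and lies on chromosome 4 (ENSMUSG00000028587, 108579423 to 108614833, plus strand). Mcm5 encodes a subunit of the MCM2-7 ring and lies on chromosome 8 (ENSMUSG00000005410, 75109569 to 75128439, plus strand). Clspn encodes claspin, a fork-associated mediator of the replication checkpoint, and lies on chromosome 4 (ENSMUSG00000042489, 126556935 to 126593903, plus strand). Tk1 encodes cytosolic thymidine kinase and lies on chromosome 11 (ENSMUSG00000025574, 117815526 to 117826092, minus strand). Gins3 encodes a GINS subunit and lies on chromosome 8 (ENSMUSG00000031669, 95633453 to 95645060, plus strand).
Orc1, chr4:108579204-108579503, plus strand: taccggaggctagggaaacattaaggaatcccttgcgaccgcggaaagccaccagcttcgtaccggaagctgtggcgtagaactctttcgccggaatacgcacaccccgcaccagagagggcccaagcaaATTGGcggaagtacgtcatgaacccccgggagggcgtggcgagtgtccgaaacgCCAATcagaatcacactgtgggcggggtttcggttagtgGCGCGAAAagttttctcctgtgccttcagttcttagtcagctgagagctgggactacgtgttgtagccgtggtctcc
Mcm5, chr8:75109259-75109558, plus strand: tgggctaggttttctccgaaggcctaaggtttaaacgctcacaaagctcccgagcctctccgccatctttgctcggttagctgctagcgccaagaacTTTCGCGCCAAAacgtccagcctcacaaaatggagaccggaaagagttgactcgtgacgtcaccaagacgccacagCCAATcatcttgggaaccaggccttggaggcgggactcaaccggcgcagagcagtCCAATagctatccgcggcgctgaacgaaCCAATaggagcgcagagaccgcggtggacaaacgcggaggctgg
Clspn, chr4:126556730-126557029, plus strand: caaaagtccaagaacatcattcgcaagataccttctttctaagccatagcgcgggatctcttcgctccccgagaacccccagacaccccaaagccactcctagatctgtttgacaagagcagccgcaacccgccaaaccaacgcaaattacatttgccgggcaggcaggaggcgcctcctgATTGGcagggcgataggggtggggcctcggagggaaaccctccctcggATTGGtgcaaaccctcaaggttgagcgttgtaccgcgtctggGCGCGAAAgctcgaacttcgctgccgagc
Tk1, chr11:117825965-117826264, minus strand: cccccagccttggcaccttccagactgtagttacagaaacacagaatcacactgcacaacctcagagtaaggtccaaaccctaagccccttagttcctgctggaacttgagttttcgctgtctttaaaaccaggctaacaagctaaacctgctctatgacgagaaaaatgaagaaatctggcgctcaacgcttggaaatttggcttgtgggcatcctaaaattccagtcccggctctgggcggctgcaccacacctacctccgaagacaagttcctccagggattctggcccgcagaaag
Gins3, chr8:95633309-95633608, plus strand: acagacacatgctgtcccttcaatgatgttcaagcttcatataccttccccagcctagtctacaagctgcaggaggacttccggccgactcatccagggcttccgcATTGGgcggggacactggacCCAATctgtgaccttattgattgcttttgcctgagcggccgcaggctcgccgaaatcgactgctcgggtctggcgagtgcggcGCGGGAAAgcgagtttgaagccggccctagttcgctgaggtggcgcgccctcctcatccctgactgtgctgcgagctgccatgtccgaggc

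In these windows the E2F word of Orc1 began at position -27 from the RefSeq start (the start itself is position 1) and that of Clspn at position 22. Mcm5 had 2 overlapping E2F words, at positions -153 and -149. Gins3 had an E2F word at position -41. The Tk1 window held neither an E2F word nor CCAAT. At least 1 E2F word was found in 16 of the 38 members with a window (42.1%), compared with 4.51% of the 10982 tested genes with a window. Counted by windows, 16 of 46 (34.8%) held the word, against 3.70% of the 14067 windows of tested genes and 2.26% of all 32851 windows. CCAAT was found in 24 of the 38 members (63.2%) and in 42.6% of the tested genes. The CHR word TTTGAA (either strand), a recognition sequence of G2/M genes, was found in 5 members (13.2%) and in 14.4% of the tested genes. E2F words were present in 5 of 8 fork helicase genes, 4 of 8 licensing genes, 7 of 18 polymerase and fork factor genes and 0 of 4 nucleotide supply genes. All 8 fork helicase genes with a window held CCAAT. A match describes letters in the window and not the binding of a factor.

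Expression was first examined gene by gene in the 4 libraries. Counts were scaled to a library of fixed size (CPM) with TMM factors, and a change is the log2 ratio of passage 9 over passage 3 with a prior count of 2. The 95% counting interval of a change came from the exact binomial (Clopper-Pearson) interval of the reads of 2 libraries, and covered counting error only. The library totals lay between 34981284 and 47604059 counts, and all 47 members passed the filter of a mean count of at least 10 that left 16734 genes. Single member counts ranged from 3 to 6673. In bulk RNA, fewer dividing cells and less RNA per dividing cell cannot be told apart.

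The members were lower at passage 9 in both cell types, and more so in DPCs. Their summed level was 1541 CPM at passage 3 and 714 CPM at passage 9 in DPCs, a 2.16-fold difference, and 1402 CPM and 859 CPM in DSCs, a 1.63-fold difference. The median change over the 47 members was -1.23 in DPCs and -0.81 in DSCs, while the median over all tested genes was 0.03 and 0.00. The change was negative for 44 members in DPCs and for 45 in DSCs. By the study's threshold of 4-fold, 9 members were lower in DPCs, where 4.36% of all tested genes were, and 0 in DSCs, where 1.16% were. No member passed 4-fold in both cell types (0.508% of all genes). At 2-fold, 30 members were lower in DPCs (15.0% of all genes) and 14 in DSCs (6.21%), and these 14 were all among the 30 (3.54% of all genes passed in both). No member was 2-fold higher in either cell type, where 16.1% of all genes were in DPCs and 8.55% in DSCs. Among genes with a mean count of at least 100, the share 2-fold lower was 13.0% in DPCs and 4.18% in DSCs.

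**Figure D1:**
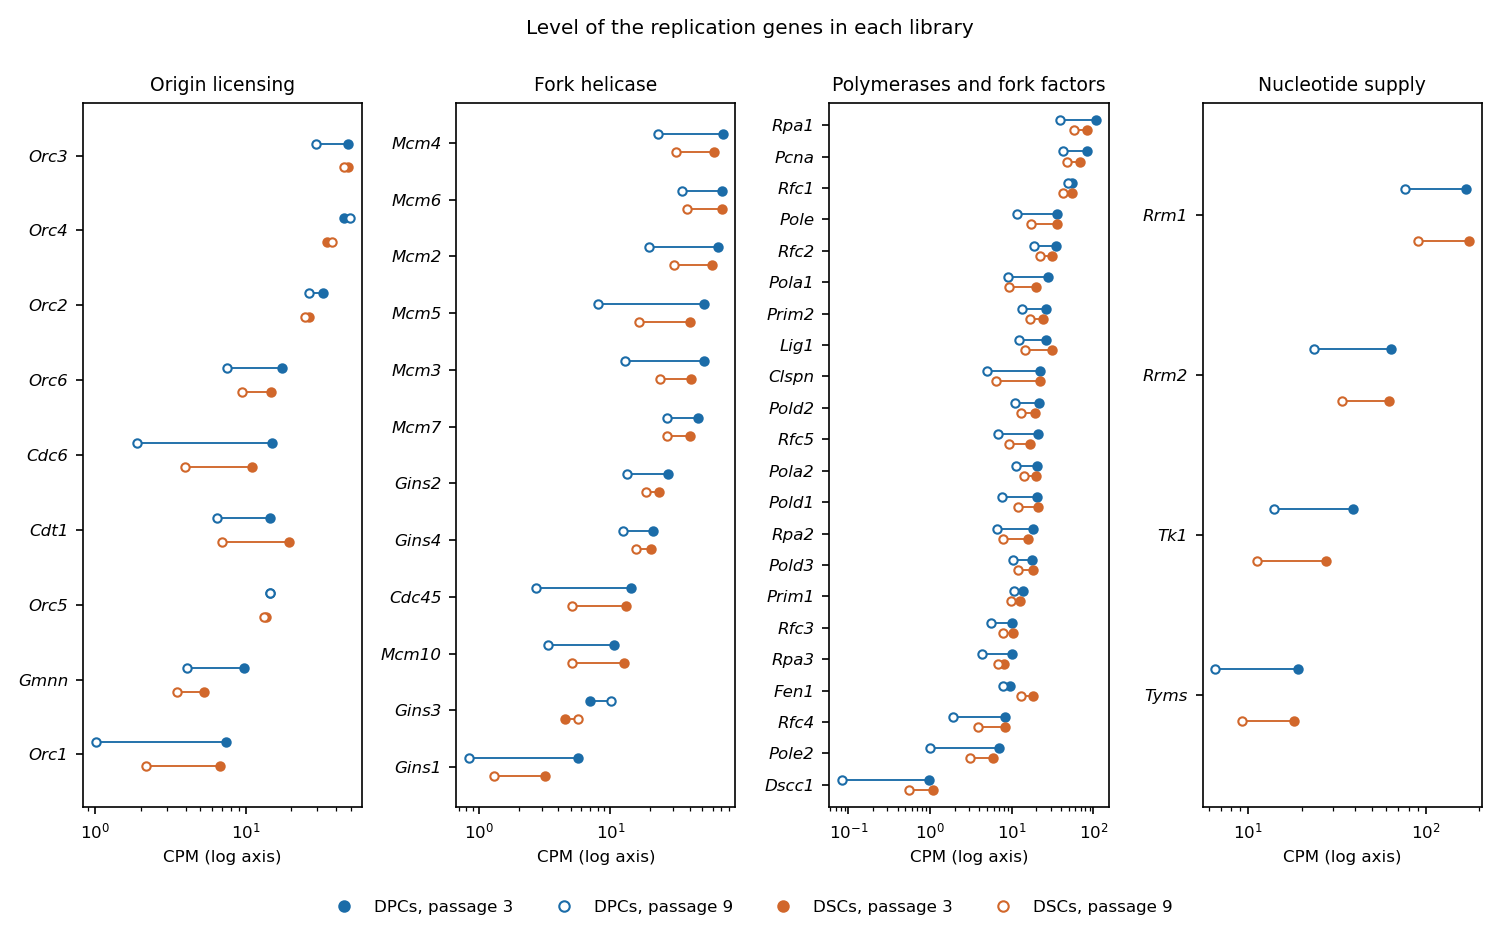
TMM-scaled CPM of the 47 members (log axis) by role group, with DPCs in blue and DSCs in orange, filled circles for passage 3 and open circles for passage 9, 1 library each. The open circle lies left of the filled circle for nearly all genes. Gins3 and Orc4 are the exceptions in both cell types, and the circles of Orc5 in DPCs coincide.

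The changes of the licensing genes formed a graded series, from -2.96 for Cdc6 to 0.11 for Orc4 in DPCs. Cdc6, the ATPase that loads MCM2-7 together with ORC, had 15.1 CPM at passage 3 and 1.89 at passage 9 in DPCs, and 11.1 and 3.97 in DSCs. Its level was lowest in high-passage DPCs, with a change of -2.96 (interval -3.38 to -2.62) in DPCs and -1.47 (-1.74 to -1.23) in DSCs. The plain CPM ratios, without the prior count, were 7.95-fold and 2.80-fold. Orc1 had 7.42, 1.00, 6.75 and 2.17 CPM (here and below in the order DPCs at passage 3 and 9, then DSCs at passage 3 and 9). The order of the libraries was that of Cdc6 except that the passage 3 levels were close, and the changes were -2.82 (-3.43 to -2.38) and -1.61 (-1.99 to -1.30). Cdt1, which brings MCM2-7 to the origin, had 14.6, 6.41, 19.3 and 7 CPM. Its changes were -1.18 in DPCs and -1.46 in DSCs, and the difference between the cell types of 0.28 had an interval (-0.01 to 0.57) that held 0.

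Orc6, a small ORC subunit, had 17.6, 7.49, 14.7 and 9.50 CPM, with changes of -1.22 and -0.63. Gmnn, which encodes geminin, the inhibitor of Cdt1, had 9.76, 4.07, 5.25 and 3.51 CPM, with changes of -1.25 and -0.57. Both were lowest at passage 9 within each cell type. The core subunit genes of ORC differed less. Orc3 had 48.3, 29.3, 47.8 and 45.3 CPM, so that only high-passage DPCs stood apart (-0.72 in DPCs and -0.08, interval -0.17 to 0.01, in DSCs). Orc2 had 32.7, 26.2, 26.6 and 24.8 CPM, and high-passage DPCs were close to both DSC libraries. Orc5 had 14.5, 14.5, 13.7 and 13.1 CPM, with intervals that held 0 in both cell types. Orc4 had 45.4, 49.1, 34.8 and 37.4 CPM and a change of 0.11 in each cell type, with intervals whose lower bounds were 0.02 in DPCs and 0.00 in DSCs, and both held 0 once the counts were halved. These levels were higher in DPCs than in DSCs at both passages. Of the 9 licensing genes, 5 were at least 2-fold lower in DPCs and 3 in DSCs (Orc1, Cdc6 and Cdt1).

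The fork helicase genes had the lowest median change in DPCs of the role groups, -1.64 compared with -0.92 in DSCs. The 6 MCM genes encode the ring that unwinds DNA. Mcm5 had 52.0 CPM at passage 3 and 8.05 at passage 9 in DPCs, and 40.4 and 16.5 in DSCs. High-passage DPCs had the lowest level, with changes of -2.68 (-2.87 to -2.51) in DPCs and -1.29 (-1.42 to -1.17) in DSCs. Mcm3 had 51.4, 13.0, 40.9 and 23.8 CPM, with changes of -1.98 and -0.78, and lay just inside 4-fold in DPCs. Mcm2 had 65.8, 19.6, 59.8 and 30.5 CPM, and Mcm4 had 71.6, 22.8, 60.9 and 31.8 CPM. These 2 genes were alike, at -1.75 and -1.65 in DPCs and -0.97 and -0.94 in DSCs. Mcm6 had 71.1, 34.8, 71.0 and 38.1 CPM, with nearly the same level in both cell types at each passage (-1.03 and -0.90). Mcm7 had 46.6, 26.9, 40.2 and 26.7 CPM, the smallest change of the ring in both cell types (-0.79 and -0.59). All 6 MCM genes were lower at passage 9 in both cell types, and 5 of them passed 2-fold in DPCs against 1, Mcm5, in DSCs.

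The partners of the ring were less uniform. Cdc45 had 14.3, 2.73, 13.2 and 5.09 CPM, with changes of -2.36 and -1.37. Gins1 had 5.71, 0.836, 3.19 and 1.29 CPM, with changes of -2.70 (-3.37 to -2.21) and -1.27 (-1.78 to -0.84). Both were lowest in high-passage DPCs. Mcm10, an initiation factor that binds the helicase, was at -1.64 in DPCs and -1.31 in DSCs, and Gins2 at -1.02 and -0.32. Gins4 had 21.1, 12.4, 20.3 and 15.7 CPM. Its changes were -0.77 in DPCs and -0.37 in DSCs. Gins3 had 6.93, 10.1, 4.51 and 5.68 CPM. It was the member with the highest change, at 0.54 (0.31 to 0.78) in DPCs and 0.33 (0.05 to 0.62) in DSCs, while its promoter, printed above, holds an E2F word. In DSCs the interval of Gins3 held 0 once the counts were halved. Gins2 shares 67.3% of its exonic bases with Gse1 on the other strand, and the use of strand in counting was not given in the sources used here.

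Among the polymerases and other fork factors all 22 changes were negative in both cell types, with medians of -1.16 and -0.58. Clspn had 22.1 CPM at passage 3 and 4.93 at passage 9 in DPCs, and 22.5 and 6.47 in DSCs. The passage 3 levels were equal within counting error, and the changes were -2.15 (-2.41 to -1.93) and -1.79 (-1.99 to -1.60), the lowest of all members in DSCs. Pole2, the second subunit of the leading strand polymerase epsilon, had 7.07, 1.00, 5.85 and 3.07 CPM, with changes of -2.75 (-3.36 to -2.31) and -0.92 (-1.25 to -0.62). Dscc1, a subunit of an alternative clamp loader that acts in sister chromatid cohesion, had 36, 3, 41 and 25 counts. Its change was -2.93 in DPCs, with the widest interval on the log2 scale of all members (-5.89 to -1.89), and -0.92 in DSCs. The plain CPM ratio in DPCs, without the prior count, was 11.7-fold and rested on these 3 counts. High-passage DPCs were lowest for each of these genes.

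Pcna had 84.8, 42.4, 69.6 and 47.4 CPM, with changes of -0.999 and -0.56. It had the highest FPKM of the members in every library, between 26.0 and 52.4, where FPKM is a level per transcript length and depth. The RFC clamp loader genes ran from Rfc4, at -2.07 and -1.09, through Rfc5 (-1.60 and -0.85), Rfc2 (-0.87 and -0.49) and Rfc3 (-0.86 and -0.40), to Rfc1, its large subunit. Rfc1 had 55.1, 48.6, 55.1 and 42.7 CPM and was the 1 member whose change was less negative in DPCs (-0.18) than in DSCs (-0.37) with an interval of the difference above 0 (0.06 to 0.31). The RPA genes were between -1.23 and -1.45 in DPCs, and in DSCs Rpa2 was at -1.01, Rpa1 at -0.51 and Rpa3 at -0.24. The catalytic subunit genes Pola1, Pold1 and Pole were at -1.60, -1.44 and -1.65 in DPCs and at -1.12, -0.81 and -1.03 in DSCs. Of their partner subunits, Pola2, Pold2, Pold3 and Prim2 were between -0.79 and -0.997 in DPCs, whereas Pole2, given above, had a more negative change than Pole. Prim1, which encodes the small primase subunit, had 13.8, 10.6, 12.6 and 9.90 CPM, with changes of -0.38 and -0.34. Lig1, the ligase that joins Okazaki fragments, was equally lower in both cell types (-1.09 and -1.10). Fen1, the flap nuclease, was at -0.26 and -0.50, and 84.2% of its exonic bases are shared with genes on the other strand (Gm10143 and Tmem258). In all, 12 of the 22 genes were at least 2-fold lower in DPCs and 6 in DSCs.

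Nucleotide supply had the narrowest range of changes of the role groups in both cell types. It was also the smallest group, with 4 genes, and a range can only widen as genes are added. Rrm1, the large subunit of ribonucleotide reductase, had 169 CPM at passage 3 and 76.3 at passage 9 in DPCs, and 176 and 90.7 in DSCs. Rrm2, its small subunit, had 63.8, 23.3, 62.0 and 33.6 CPM. Tyms, which makes thymidylate, had 19.2, 6.52, 18.01 and 9.26 CPM. In each of these genes the passage 3 levels of DPCs and DSCs were close and high-passage DPCs were lowest. Tk1 had 39.1, 13.9, 27.3 and 11.2 CPM, and here DPCs had the higher level at both passages. The changes in DPCs were -1.14 for Rrm1, -1.45 for Rrm2, -1.55 for Tyms and -1.49 for Tk1, so that all 4 passed 2-fold. In DSCs they were -0.96, -0.88, -0.96 and -1.28, and Tk1 passed 2-fold.

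**Figure D2:**
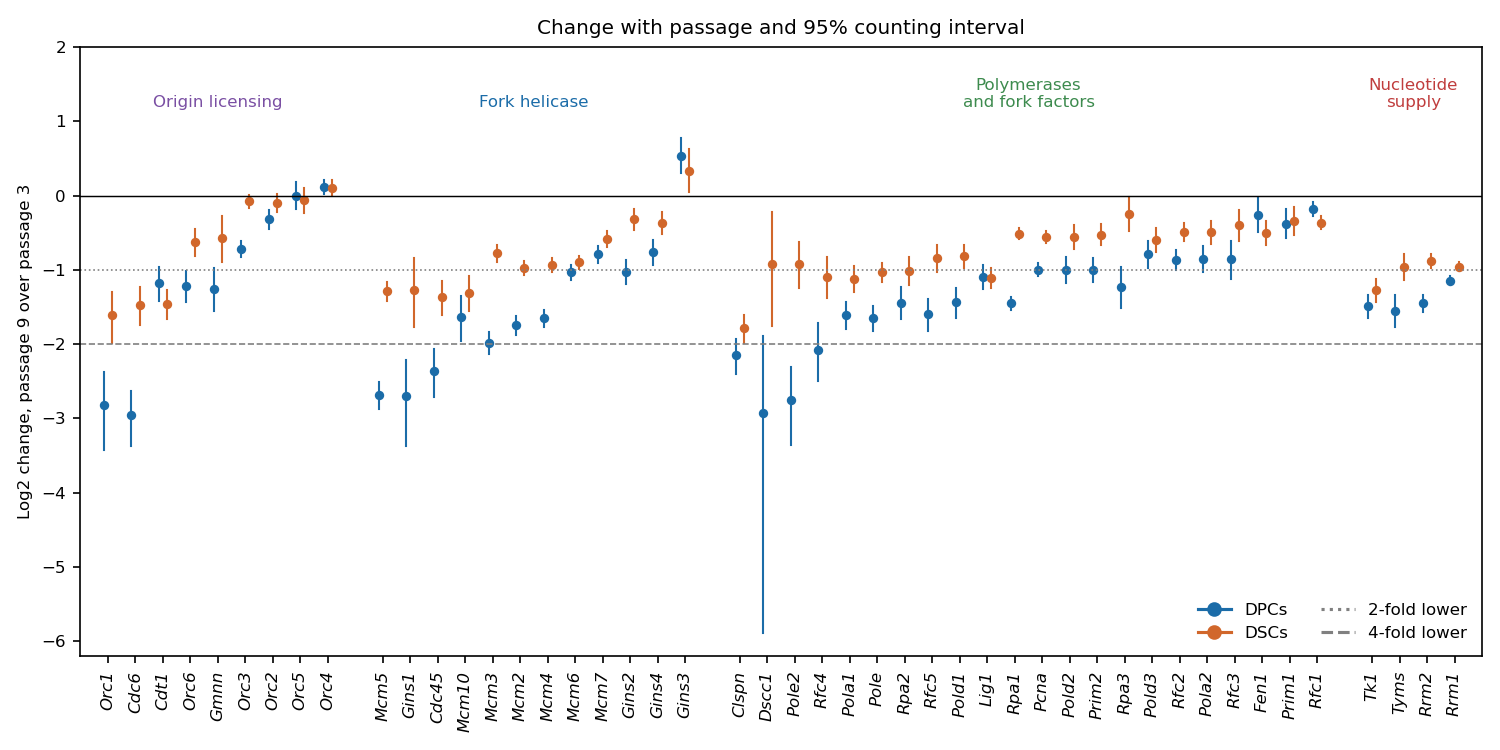
Log2 change of each member, passage 9 over passage 3, with its 95% counting interval, in DPCs (blue) and DSCs (orange), sorted by mean change within a role group. Dotted and dashed lines mark 2-fold and 4-fold lower. 9 members lie past the dashed line in DPCs and 0 in DSCs.

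The 9 members past 4-fold in DPCs were Cdc6, Dscc1, Orc1, Pole2, Gins1, Mcm5, Cdc45, Clspn and Rfc4. The whole interval lay past 4-fold for 6 of them, and the intervals of Clspn, Dscc1 and Rfc4 held 4-fold. With the counts halved, since both mates of a pair may have been counted, 4 intervals (Mcm5, Orc1, Cdc6 and Pole2) still lay past 4-fold. Mcm3, with -1.98, was the nearest member on the other side of the threshold. Of the 9, 5 had an E2F word (Mcm5, Orc1, Cdc6, Clspn and Pole2), Cdc45 and Rfc4 had a window without one, and Gins1 and Dscc1 had no window. Among the 38 members with a window, the medians were -1.31 in DPCs and -0.91 in DSCs for the 16 with the word, and -1.22 and -0.59 for the 22 without it, and this difference was not tested. In DPCs the counting interval lay below 0 for 44 members, where it did for 37.9% of all tested genes, and above 0 for Gins3 and Orc4. In DSCs it lay below 0 for 42 (32.9% of all tested genes) and above 0 for the same 2 genes.

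The next question was whether the change differed between the cell types. The change was more negative in DPCs for 40 of the 47 members, with a median difference (DPCs minus DSCs) of -0.47, against -0.01 over all tested genes. The counting interval of the difference lay below 0 for 36 members (31.9% of all tested genes) and above 0 for Rfc1, and held 0 for 10. With halved counts it lay below 0 for 31 and held 0 for 15, which then included Clspn, Dscc1, Mcm6, Mcm7 and Orc2. The share of all tested genes was not computed with halved counts. With 1 library a group these intervals compare libraries and are no test of the cell types. Pole2 (-1.84), Cdc6 (-1.49), Gins1 (-1.43) and Mcm5 (-1.39) were among the most negative differences. That of Dscc1 was -2.02 but rested on 3 counts in high-passage DPCs, was -1.13 with a prior count of 10, and had an interval from halved counts (-4.62 to 0.59) that held 0. The 7 members with a less negative or more positive change in DPCs were Gins3, Cdt1, Orc5, Orc4, Lig1, Fen1 and Rfc1. Across the 47 members, which all come from the same 4 libraries, the changes in DPCs and DSCs had a Pearson's r of 0.806 and a Spearman's rho of 0.818, compared with 0.466 and 0.517 across all tested genes. The median ratio of the change in DSCs to that in DPCs was 0.566.

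**Figure D3:**
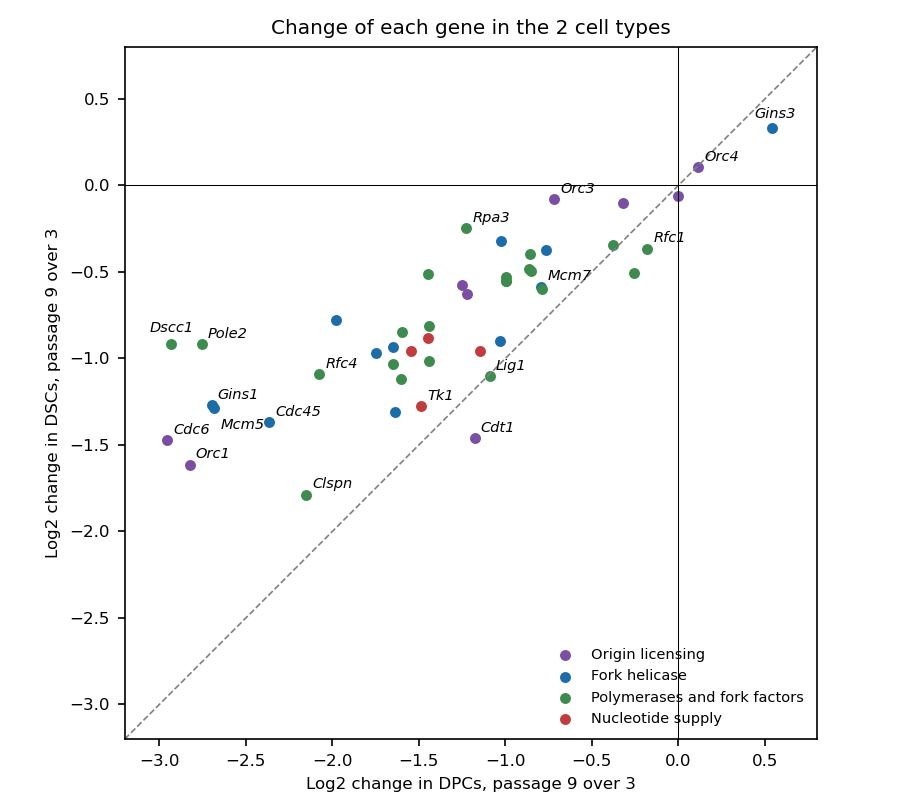
Log2 change of each member in DPCs (horizontal axis) and in DSCs (vertical axis), passage 9 over passage 3, coloured by role group, with the line of equal change dashed. 40 of the 47 points lie above the dashed line, which marks a more negative change in DPCs.

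The cell types were also compared at each passage. At passage 3 the median member was 0.14 higher in DPCs than in DSCs on the log2 scale (0.23 with total counts in place of TMM), and 0 members were 2-fold apart, where 13.3% of all tested genes were. Gmnn (0.89), Gins1 (0.83), Gins3 (0.61) and Tk1 (0.52) were furthest above, and Fen1 (-0.97) and Cdt1 (-0.41) furthest below. At passage 9 the median member was at -0.39, and 6 members (Mcm5, Orc1, Cdc6, Dscc1, Pole2 and Rfc4) were at least 2-fold lower in DPCs, where 11.0% of all tested genes were, and 0 were 2-fold higher. These 6 are 12.8% of the members, close to the share of all genes that were 2-fold lower and below the 20.1% that were 2-fold apart in either direction. Gins3 (0.82), Orc4 (0.39), Tk1 (0.31) and Rfc1 (0.19) were higher in DPCs at passage 9, with intervals above 0. At passage 3 the interval lay above 0 for 24 members and below 0 for 5, where it did so for 29.3% and 30.2% of all tested genes. At passage 9 it lay below 0 for 34 members and above 0 for these 4, where it did so for 36.5% and 34.1%.

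An additive model of cell type and passage was fitted over all genes with edgeR's quasi-likelihood test. With 4 libraries the fit leaves 1 residual degree of freedom, which measures how unlike DPCs and DSCs were in their change with passage. No member and no gene (0.0%) had a Benjamini-Hochberg adjusted p under 0.05, and the members' adjusted p ran from 0.188 to 0.958. At an unadjusted p under 0.05, 33 of the 47 members were lower and 0 higher, where 7.8% of all genes were lower. DESeq2 called 17 members lower at an adjusted p under 0.05, where it called 2.65% of all genes lower. Those 17 were Mcm2 to Mcm6, Mcm10, Cdc45, Orc1, Cdc6, Cdt1, Tk1, Rrm1, Rrm2, Clspn, Pola1, Pole and Lig1.

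Levels within a complex were then compared by FPKM, since counts of different genes depend on their lengths. In low-passage DPCs the 6 MCM genes had nearly equal shares of their summed FPKM, from 15.9% for Mcm3 and Mcm7 to 17.6% for Mcm4. In high-passage DPCs Mcm5 had 6.56% and Mcm7 32.3%, while the summed FPKM went from 105 to 39.8. In DSCs the share of Mcm5 was 13.6% at passage 3 and 10.5% at passage 9, and that of Mcm7 was 15.4% and 23.7%. Orc1 was the smallest share of ORC, with 3.68% and 0.469% in low- and high-passage DPCs and 3.48% and 1.65% in DSCs. The FPKM ratio of Orc4 to Orc1 was 8.07 at passage 3 and 86.0 at passage 9 in DPCs, and 7.50 and 17.6 in DSCs. FPKM set the cell types further apart here than counts did. Orc1 was 10.4-fold lower in DPCs and 2.40-fold lower in DSCs by FPKM, against 7.40-fold and 3.11-fold by plain CPM. It had 36 counts in high-passage DPCs. In GINS, Gins1 had 17.0% at low passage and 4.26% at high passage in DPCs, and 11.0% and 6.24% in DSCs, while Gins3 had 9.02% and 23.3% in DPCs and 6.90% and 11.3% in DSCs. In RFC, the share of Rfc4 was 16.5% at low passage in both cell types, and 6.41% in DPCs and 11.6% in DSCs at high passage. Ribonucleotide reductase kept a more even ratio of Rrm1 to Rrm2, at 1.45, 1.81, 1.52 and 1.38 in the same order. The ratio of Gmnn to Cdt1, the licensing inhibitor to its target, was 1.42 and 1.43 in DPCs and 0.708 and 1.32 in DSCs. By FPKM the changes of Mcm7 were smaller than by counts (-0.37 in DPCs and -0.25 in DSCs, with a pseudocount of 0.1), and 18.1% of the 50-base windows of its transcripts also occur in other genes.

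**Figure D4:**
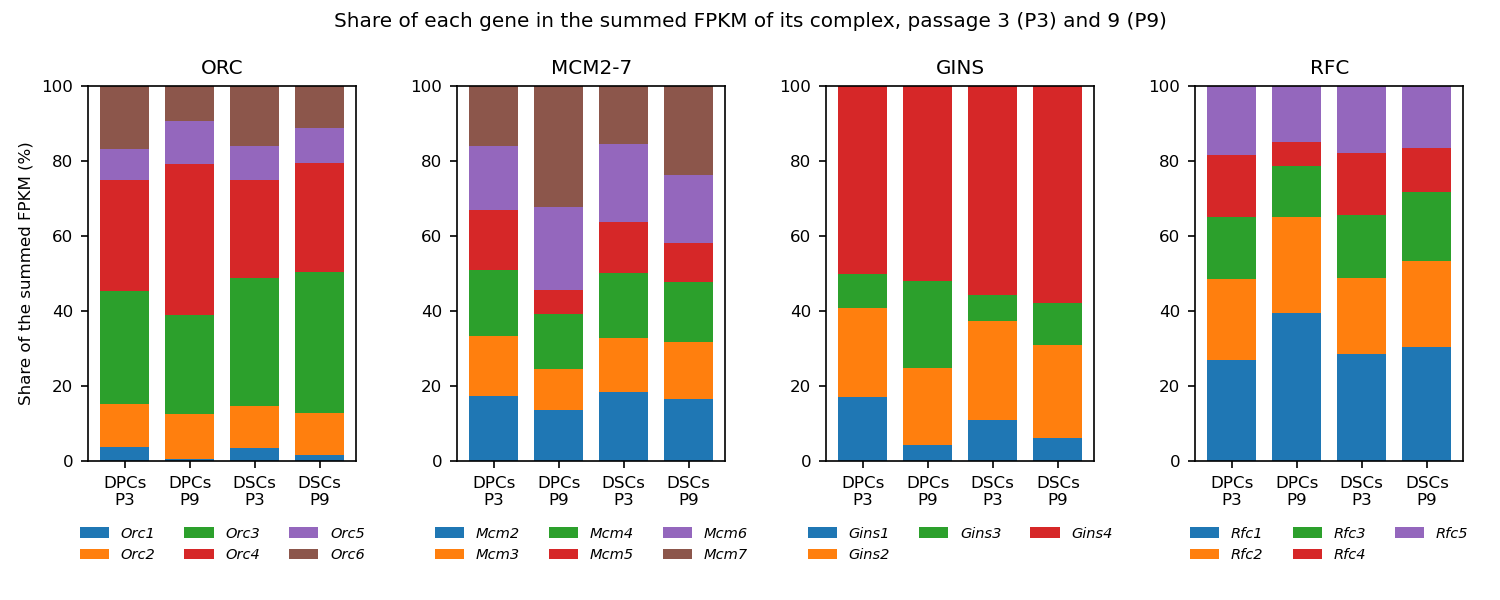
Share of each gene in the summed FPKM of its complex (percent, stacked to 100) for ORC, MCM2-7, GINS and RFC in the 4 libraries, 1 bar each. Mcm5 takes 6.56% and Mcm7 32.3% of MCM2-7 in high-passage DPCs.

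Another 47 replication genes outside the list, grouped by role, served as a comparison. Their median change was -0.78 in DPCs and -0.52 in DSCs. 21 of them were at least 2-fold lower in DPCs and 11 in DSCs, with 7 and 0 at least 4-fold lower. Of all tested genes, 15.0% and 6.21% were at least 2-fold lower, and 4.36% and 1.16% at least 4-fold lower. The histone chaperone gene Asf1b (-3.35 in DPCs and -1.58 in DSCs), Uhrf1 (-2.67 and -1.42), which maintains DNA methylation behind the fork, Ticrr (-2.30 and -1.39), which acts in origin firing, and Chtf18 (-2.35 and -1.10), a partner of Dscc1, were among the lowest. Samhd1, which degrades nucleotides, and Mcm9 were the 2 genes at least 2-fold higher in DPCs (1.06 each), with -0.03 and -0.00 in DSCs. Rrm2b, the p53-responsive small subunit of ribonucleotide reductase, was higher in both (0.48 and 0.49), in contrast to Rrm2.

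Several other measures moved with the members. The 5 markers of cycling cells (Mki67, Top2a, Ccnb1, Cdk1 and Ccna2) had a summed level of 573 CPM at passage 3 and 136 at passage 9 in DPCs, and 486 and 195 in DSCs, a 4.23-fold and a 2.50-fold difference. All 5 were lower at passage 9 in both cell types, and the members' summed level per summed level of these markers was 2.69 and 5.26 in DPCs and 2.88 and 4.41 in DSCs at passage 3 and 9. The 4 immune markers were lower at passage 9 in both cell types as well (21.2 and 9.03 CPM in DPCs, 32.9 and 14.0 CPM in DSCs). Schwann cell markers summed to 7.20 and 3.54 CPM in DPCs and 13.4 and 4.92 CPM in DSCs, and endothelial markers to between 0.111 and 1.79 CPM. The keratinocyte markers Krt5, Krt14, Krt15 and Cdh1 and the melanocyte markers Dct, Tyrp1 and Tyr had 0 counts in all 4 libraries, while Trp63 of the keratinocyte list had 10 to 35 counts and Pmel of the melanocyte list 17 to 47. The mesenchymal markers were abundant, with 17329 and 7217 CPM in DPCs and 26372 and 23054 CPM in DSCs, most of it Col1a1 and Col1a2. Pdgfra and Dcn went the other way, with changes of 1.42 and 0.39 in DPCs and 1.14 and 4.50 in DSCs. The papilla and sheath markers did not separate the cell types in 1 direction. Sox2 was higher in DPCs at both passages (45.6 and 41.5 CPM, against 7.09 and 3.91 in DSCs), whereas Ncam1 was higher in DSCs (99.0 and 46.6 CPM in DPCs, 310 and 342 in DSCs). Vcan had 112, 96.0, 139 and 63.9 CPM in the same order, and Alpl had 6 to 23 counts and Lepr 0 to 18. Lef1 had 508 counts in low-passage and 2 in high-passage DPCs, and 101 and 55 in DSCs. It was thus higher in DPCs at passage 3 and lower at passage 9. Of the sheath markers at passage 3, Acta2 and Tagln were higher in DPCs (7123 and 1893 CPM, against 5728 and 1589 in DSCs) and Col11a1 lower (356 against 574 CPM), and at passage 9 all 3 were at least 2-fold lower in DPCs. The part of these measures in the members' changes was not tested.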

How the data were processed

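Poly-A RNA of 4 libraries was sequenced in pairs. The authors deposited raw counts per gene, and FPKM per library, which they had scaled by transcript length and sequencing depth. The submitters' processing notes name Bowtie 0.12.2 and the builds mm8 and mm9, but 46 of the 47 members had the position of GENCODE M21 (GRCm38), whose coordinates are used here. The counting program and the use of strand were not given in the sources used here, and the labels and the study name different library kits. More genes had 2 counts (1339) than 3 (583) in low-passage DPCs. Both mates of a pair may have been counted, which these numbers alone do not settle, so intervals were repeated with halved counts.

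Counts were scaled with TMM (edgeR 4.0.16, R 4.3.3), and genes with a mean count of at least 10 were kept. Changes used a prior count of 2. Intervals are 95% Clopper-Pearson and compare libraries, not conditions. The additive model used edgeR's quasi-likelihood test with Benjamini-Hochberg adjustment, and DESeq2 1.42.0 as an alternative. The edgeR additive fit was tested on simulated data, in which the change was the same in both cell types. Named members are those of licensing, MCM2-7, Pcna and nucleotide supply, with the 3 lowest and 2 highest of each role group, and all others by their changes. The rule for the members names genes and uses no measured value, but members and lists were chosen with earlier results of these data known. The 4-fold threshold is the study's. Reads may be shared: 15 members overlap an exon of another gene on the other strand and 4 on the same strand, and 5 share over 5% of their 50-base transcript windows with other genes, Pcna the most (19.1%, with Pcna-ps2, which had 135 to 326 counts). Promoters came from RefSeq (GRCm38.p6), and Dscc1, Gins1, Gins2, Gins4, Gmnn, Mcm4, Pole, Prim2 and Rfc2 had no entry in the table.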

Additional observations from a re-analysis of the deposited data

How the results depend on the processing

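The medians, counts and single changes of the members were recomputed with total counts, DESeq2 size factors, upper quartile factors, prior counts of 0.5 and 10, no filter, a minimum mean count of 100 and the deposited FPKM. Of 984 values of single members under the settings other than FPKM, 983 stayed within their counting interval, and Dscc1 in DPCs with a prior count of 10 (-1.86) did not. With FPKM, 84 of 282 left it and 4 reversed: Orc4 in DSCs was -0.0312 with a pseudocount of 0.1 and -0.0297 with 1, and the difference of Mcm6 between the cell types was 0.0516 and 0.0473. With a pseudocount of 0.1, the median was -1.45 for the fork helicase in DPCs and -0.37 for licensing in DSCs. With a pseudocount of 1, the median over the members was -0.98 in DPCs and -0.62 in DSCs. The role medians in DPCs were then -0.95 for licensing, -1.23 for the fork helicase, -0.90 for the polymerases and -1.18 for nucleotide supply, and licensing in DSCs was at -0.305. Then 1 member passed 4-fold in DPCs, and 6 passed 2-fold in DSCs, 3 of them in both cell types. A pseudocount of 1 is large beside members below 1 FPKM and lowers their fold by construction; the cause of the other shifts was not tested. In the additive fit, DESeq2's Wald test called 17 members lower, against 0 by edgeR. Halved counts left 43 intervals below 0 in DPCs and 40 in DSCs, and the share of all tested genes was not computed for them. The labels carry no replicate numbers to pair, the additive fit holds cell type as its only block, and with 1 library a group no library could be left out. Depth limits Dscc1, Gins1, Orc1 and Pole2, which had 3 to 36 counts in high-passage DPCs.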
